A study of Mus musculus with 6 samples.

Results

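The thrombospondin genes Thbs1, Thbs2 and Thbs3, the fibronectin gene Fn1, and the matricellular and matrix glycoprotein genes Tnc, Spp1, Sparc, Postn, Fbln1 and Fbln2 were followed in 4T1-T cells sorted by their uptake of acetylated low-density lipoprotein (acLDL). They were chosen by name, with earlier results of these data known. All 10 were present among the 15973 protein-coding genes of the deposited comparison and the 53379 gene IDs of the count table. 4T1-T is a VM sub-clone of the mouse mammary carcinoma line 4T1, where VM stands for vasculogenic mimicry, the formation of vessel-like channels by tumor cells. Both populations came from this single clone and shared the same treatment, namely overnight serum starvation in Opti-Mem with BSA, 4 h with Alexa-488 labelled acLDL at 10 ug/mL, washing, 1 h in complete growth medium, trypsin and straining. The acLDL-high population was the brightest 25% and the acLDL-low population the dimmest 25% of the sorted cells, each with 3 replicates, so that no library came from cells that had not met acLDL. RNA-Seq of poly(A) RNA gave 70263372 to 94216786 counts per library, from which CPM, counts scaled to library size, were computed. A total of 3 counts, the floor used here, is at most 0.0427 CPM in any library. It allows for counting error alone and takes each count as a separate RNA fragment. The reads were paired, and Acta2 had only 0 or 2 counts and Csf1r 0, 2 or 4 counts per library. Whether both reads of a pair were counted was not tested, and if they were, this floor is too low.

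Fibronectin is a large adhesive glycoprotein that cells assemble into fibrils through integrins. Matricellular proteins such as the thrombospondins, tenascin-C, osteopontin (Spp1), SPARC and periostin are secreted into the matrix, where they act mainly by modulating adhesion, protease activity and growth factor signalling and less as structural scaffold. Fibulins bind to fibronectin, basement membrane and elastic fibres. In tumors these genes are often expressed by stromal fibroblasts as well as by carcinoma cells, and thrombospondin-1 is a classical inhibitor of angiogenesis. The comparison asks whether cells that take up much acLDL, a property of endothelial cells, express these genes at another level than cells of the same culture that take up little.

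The libraries carried the marks of mammary epithelium and not of fibroblasts or of endothelial cells. Of the mammary epithelial markers, Krt8 and Krt18 were at 865 to 1389 CPM and at 746 to 1420 CPM, Epcam at 129 to 234 CPM, and Krt5 at 0 counts in all libraries. Of 10 fibroblast markers, Lum, Col3a1 and Thy1 had 0 counts in every library, Dcn reached 0.250 CPM, while Pdgfra was at 28.1 to 42.8 CPM. The summed level of the fibroblast list was 29.9 to 43.6 CPM in acLDL-high and 29.2 to 41.4 CPM in acLDL-low libraries, and 0 of its 3 tested genes were called (a call is defined with the comparison of the populations). Of 10 endothelial markers, Emcn, Erg and Cldn5 had 0 counts throughout, Kdr and Tek reached 0.0286 CPM each and Pecam1 0.359 CPM. Their sum, nearly all of it from Eng, was 72.7 to 103 CPM against 69.2 to 101 CPM, with 0 of 4 tested genes called. Of 11 macrophage markers, Adgre1, C1qa, Cd163 and Msr1 had 0 counts. Lyz2, Csf1r, Itgam and Fcgr1 reached at most 0.0529 CPM and Ptprc 0.222 CPM. The sum of the 11 markers, nearly all of it from Cd14 and Cd68, was 17.1 to 22.3 CPM against 16.4 to 20.1 CPM. Cd14 alone among them was called, at a log2 difference of 0.32 between acLDL-high and acLDL-low (standard error, SE, 0.07, edgeR adjusted p = 0.0246) at 9.65 to 14.0 CPM in acLDL-high and 7.89 to 11.4 CPM in acLDL-low cells. Cd68, the other macrophage marker above 5 CPM, was at 10.7, 8.31 and 7.90 CPM in acLDL-low and 6.75, 7.19 and 8.16 CPM in acLDL-high replicates 1, 2 and 3, a log2 difference of -0.28 (SE 0.11, edgeR adjusted p = 0.201). Macrophages are known to express several of these matrix genes, and whether such cells had a part in the differences was not tested.

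The 10 genes spanned 5 orders of magnitude in level. Per kilobase of exon, Spp1 was highest at a mean of 956 CPM per kb over the 6 libraries, followed by Fn1 at 531 and Thbs1 at 120 CPM per kb. Fbln2 was at 63.7, Sparc at 25.9 and Tnc at 8.10 CPM per kb. Thbs3 at 1.44, Postn at 0.150, Thbs2 at 0.0276 and Fbln1 at 0.00877 CPM per kb closed the order. Each gene was above the next in all 6 libraries. The ranges of Spp1 and Fn1 overlapped, because Spp1 fell to 402 CPM per kb in a replicate 2 library while Fn1 reached 858 CPM per kb in a replicate 3 library, and those of Thbs2 and Fbln1 overlapped as well. Among the 12572 genes tested, Spp1 ranked 16 and Fn1 36 by this level per length, and Fn1 ranked 7 by CPM. The 10 genes together took 0.472% to 1.404% of all counts of a library, most of it from Fn1.

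**Figure D1:**
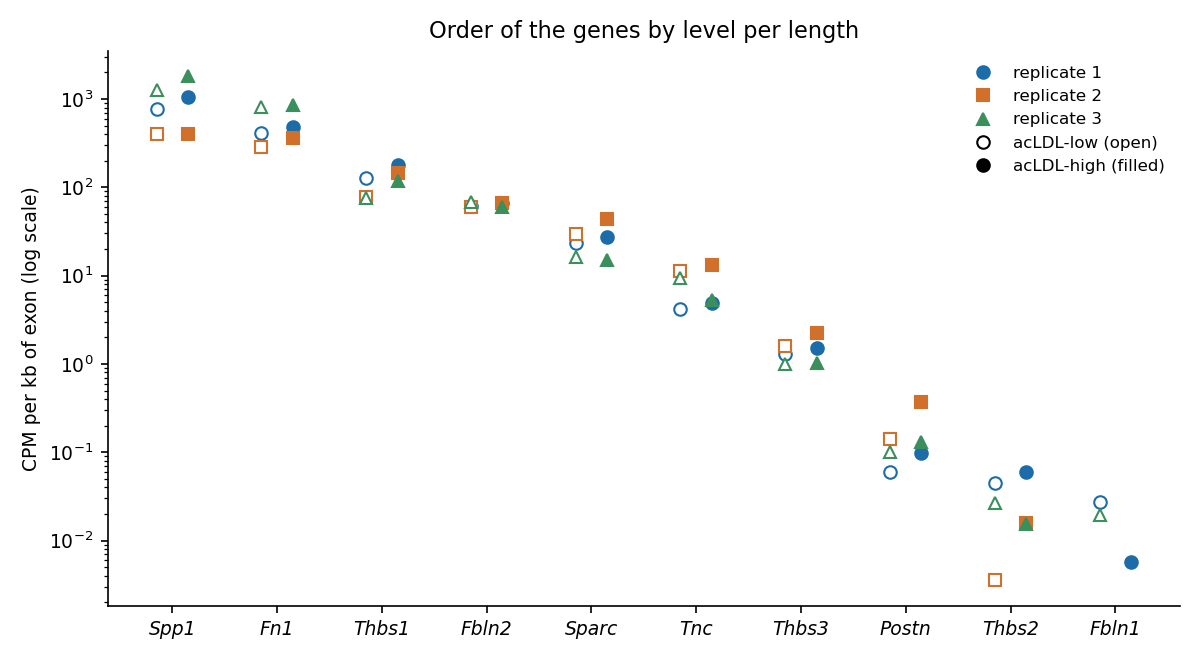
CPM per kilobase of exon (log scale) of the 10 genes in each library, with open symbols for acLDL-low and filled symbols for acLDL-high cells and one symbol shape per replicate. The genes run from Spp1 and Fn1 at the top to Fbln1, whose 3 libraries without a count are not drawn.

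The genes lie on 9 chromosomes of GRCm38. Thbs1 is at chr2:118111876-118127133, Thbs2 at chr17:14665500-14694235 and Thbs3 at chr3:89215180-89226837. Fn1 is at chr1:71585520-71653200, Tnc at chr4:63959785-64047015 and Spp1 at chr5:104435118-104441050. Sparc is at chr11:55394500-55423183, Postn at chr3:54361109-54391037, Fbln1 at chr15:85205949-85286535 and Fbln2 at chr6:91212455-91272540. Exons of 5 of them overlap another annotated gene, and the strand setting used in counting these stranded libraries is not given in the sources used here. Spp1 shares 309 bases, 18.75% of its exon length, with Gm42793 on its own strand. Gm42793 had 160 to 582 counts against 47838 or more for Spp1. How reads that fall in both genes were counted is not given, so the level of Spp1 per length is uncertain as well. Thbs3 shares 318 bases with Mtx1 on the opposite strand, which had 2675 to 4464 counts, more than Thbs3 itself at 333 to 777, so that the level of Thbs3 is uncertain. The genes that overlap Thbs1, Fn1 and Tnc (Gm29233, Apol7d and 8030451A03Rik) had at most 5, 57 and 37 counts.

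Promoter windows of RefSeq (250 bases before to 50 after the start site, GRCm38.p6) were held for 8 of the 10 genes, all but Thbs1 and Fn1. Those of Spp1 and Postn are shown because both were called higher, and that of Tnc as an example of a gene whose difference changed sign between replicates. The differences of Thbs2, Sparc and Fbln2 changed sign too, and their windows are not shown. Capitals mark motif matches on either strand, and no matches overlapped in these windows. The windows are chr5:104434861-104435160 on the plus strand for Spp1, chr3:54360857-54361156 on the plus strand for Postn and chr4:64046966-64047265 on the minus strand for Tnc.

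Spp1: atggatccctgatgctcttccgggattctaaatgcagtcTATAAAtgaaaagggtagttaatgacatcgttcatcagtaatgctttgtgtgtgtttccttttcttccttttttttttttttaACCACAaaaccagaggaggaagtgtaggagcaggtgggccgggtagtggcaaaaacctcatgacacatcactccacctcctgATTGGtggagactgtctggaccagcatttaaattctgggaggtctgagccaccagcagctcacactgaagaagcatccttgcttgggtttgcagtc
Postn: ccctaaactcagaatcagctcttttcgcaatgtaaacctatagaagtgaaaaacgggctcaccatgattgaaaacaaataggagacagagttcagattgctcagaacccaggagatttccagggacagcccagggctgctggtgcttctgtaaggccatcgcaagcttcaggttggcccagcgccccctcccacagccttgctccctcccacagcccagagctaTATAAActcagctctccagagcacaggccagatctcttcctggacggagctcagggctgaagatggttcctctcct
Tnc: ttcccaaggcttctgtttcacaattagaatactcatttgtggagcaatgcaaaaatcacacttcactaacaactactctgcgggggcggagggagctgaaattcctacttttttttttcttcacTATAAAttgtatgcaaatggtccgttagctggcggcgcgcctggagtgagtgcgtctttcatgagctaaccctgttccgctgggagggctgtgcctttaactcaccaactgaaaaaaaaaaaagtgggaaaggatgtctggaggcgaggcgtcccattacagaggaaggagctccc

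The motifs searched were the TATA box (TATAAA), the CCAAT box (CCAAT), an AP-1 element (TGANTCA), a TEAD element (GGAATG), a RUNX element (TGTGGT) and the CArG box of SRF. A TATA box was in 4 of the 8 windows (Thbs2, Tnc, Spp1 and Postn), against 13.6% of all 32851 windows of this length, and lay 26 bases before the start site in Postn, 126 in Tnc and 211 in Spp1. A CCAAT box was in 3 of 8 (37.4% of all windows), among them Spp1 at 46 bases before its start. The RUNX letters were in 2 of 8, Spp1 and Sparc (16.8%). The start sites used for the windows of Sparc and Fbln2 lay 3103 and 309 bases from the gene starts given above. Those of the other windows lay at most 27 bases away. The AP-1, TEAD and CArG letters were in 0 of the 8 windows, against 7.81%, 14.7% and 1.63% of all windows. These matches describe the letters only, and binding was not measured.

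Each gene was tested between the populations by quasi-likelihood in edgeR, replicates entering as a block, and a gene is called where its p-value adjusted by Benjamini-Hochberg over all 12572 genes tested was under 0.05. Nothing states that the replicates were separate cultures beyond their separate occasions. With the block, the p-values rest on how the differences within pairs of these libraries spread, not on the spread in level between replicates. With 2 residual degrees of freedom per gene, edgeR moderates that spread by the spread of the other genes. The SE of a gene therefore does not measure the spread of its own 3 differences alone. For Spp1 the SE was 0.08 here and 0.16 in DESeq2 with the block, for Fn1 0.06 and 0.05. Thbs1, Spp1, Postn and Fn1 were higher in acLDL-high cells, by 1.60-fold, 1.26-fold, 1.84-fold and 1.16-fold. They are 4 of the 9 genes that passed the filter on low counts, Fbln1 being the one that did not. In such sorted bulk samples, fewer cells of a type and less RNA per cell cannot be told apart. Over all genes 4.75% were called, 3.43% as higher and 1.32% as lower in acLDL-high cells. Of the 9 genes, 0 were called lower and 8 had a positive log2 fold change, with a median of 0.26 beside 0.00 for all genes tested. At an unadjusted p under 0.05 in edgeR there were 6, all positive, as Thbs3 and Sparc joined the 4. The genes were chosen with earlier results of these data known, so these counts and shares describe them and test nothing. For every gene the ranges of the populations overlapped, and the share of all genes with such overlap was not computed.

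**Figure D2:**
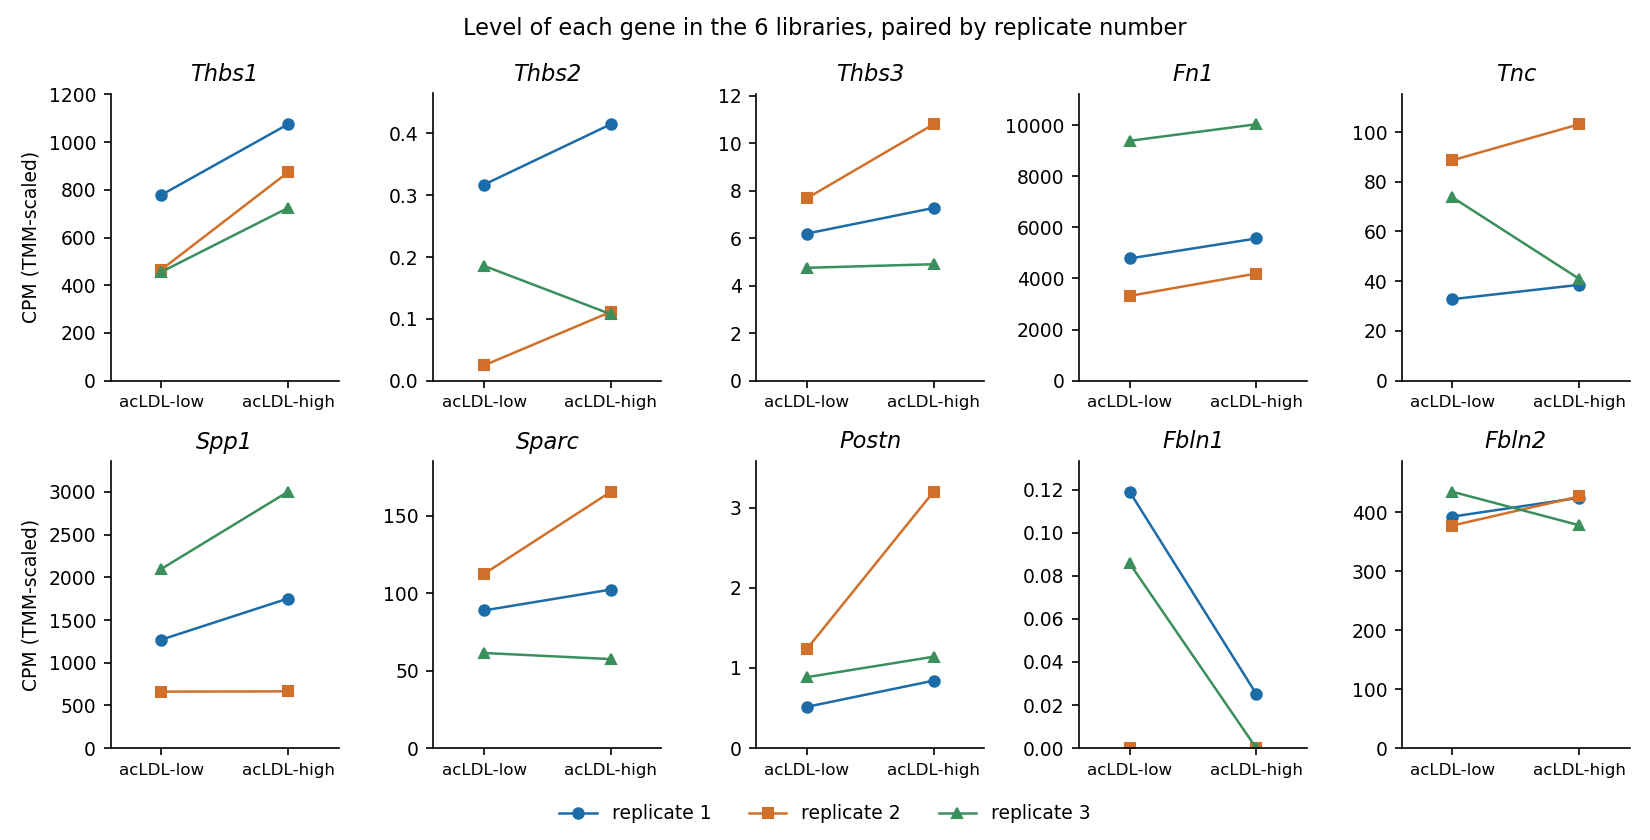
TMM-scaled CPM of each gene in acLDL-low and acLDL-high cells, with a line for each replicate number and the y axis of each panel starting at 0. The 3 lines of Thbs1, Fn1, Thbs3 and Postn slope upward, that of replicate 2 is nearly flat for Spp1, and that of replicate 3 slopes downward for Tnc, Sparc, Fbln2 and Thbs2.

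Thbs1 encodes thrombospondin-1, a trimeric glycoprotein that binds CD36 and CD47 and can activate latent TGF-beta. Its level in replicates 1, 2 and 3 was 779, 465 and 456 CPM in acLDL-low and 1075, 874 and 724 CPM in acLDL-high cells. Each acLDL-high library stood above its own acLDL-low partner, while the lowest acLDL-high library, replicate 3, lay below the highest acLDL-low library, replicate 1. The means were 891 ± 176 CPM against 567 ± 184 CPM (SD, n = 3), and the differences within pairs were 0.47, 0.91 and 0.67 in log2 CPM. The log2 fold change was 0.68 (SE 0.07, edgeR adjusted p = 0.000122). It stayed between 0.56 and 0.79 in 9 alternative settings and was called in 8 of them. The exception was the fit without the replicate block, with 0.65 and an adjusted p of 1, in which 0 genes of the whole table were called (45 had an unadjusted p under 0.05). Between replicates, the mean of both populations varied 1.57-fold, about as much as between populations.

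The other thrombospondins were far lower. Thbs3, a pentameric thrombospondin, was at 6.20, 7.69 and 4.76 CPM in acLDL-low and 7.28, 10.8 and 4.91 CPM in acLDL-high cells. It was higher in 3 of 3 pairs, by 0.23, 0.49 and 0.04, but was not called, with a log2 fold change of 0.27 (SE 0.10, edgeR adjusted p = 0.151). Thbs2, the trimeric relative of Thbs1, had 24, 2 and 13 counts in acLDL-low and 33, 8 and 10 counts in acLDL-high libraries, between 0.0248 and 0.415 CPM. Its differences of 0.36, 1.44 and -0.67 changed sign, and the log2 fold change of 0.26 had an SE of 0.50 (edgeR adjusted p = 0.834). At these counts a difference of the size seen for Thbs1 was not detectable in Thbs2. Thbs4 and Comp, the remaining members of the family, had at most 0.126 and 0.429 CPM. Comp showed a log2 fold change of -0.13 (SE 0.38), and Thbs4 was not tested.

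Fn1 was the most abundant of the genes by CPM. Its replicates 1, 2 and 3 were at 4781, 3316 and 9382 CPM in acLDL-low and 5562, 4191 and 10029 CPM in acLDL-high cells. The acLDL-high library was the higher of each pair, by 0.22, 0.34 and 0.10, yet replicate 3 was above all other libraries in both populations. The means of 6594 ± 3053 CPM and 5826 ± 3165 CPM (SD, n = 3) therefore overlapped broadly, and Fn1 varied 2.59-fold between replicates against 1.16-fold between populations. The log2 fold change was 0.22 (SE 0.06, edgeR adjusted p = 0.0422), close to the threshold. With only 2 pairs it was not called, at 0.22 (adjusted p = 0.119) without replicate 1, 0.16 (0.0587) without replicate 2 and 0.28 (0.0674) without replicate 3.

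Spp1 encodes osteopontin, a secreted phosphoprotein that binds integrins through an RGD motif and also CD44. In replicates 1, 2 and 3 it was at 1270, 662 and 2098 CPM in acLDL-low and at 1752, 665 and 3001 CPM in acLDL-high cells. Replicates 1 and 3 rose with uptake by 0.46 and 0.52, whereas the replicate 2 libraries were level (0.01) and were the lowest of each population. The log2 fold change was 0.33 (SE 0.08, edgeR adjusted p = 0.0312). Leaving out replicate 2 gave 0.49 (adjusted p = 6.98e-17, on 1 residual degree of freedom per gene), and leaving out replicate 3 gave 0.24, no longer called (0.296). DESeq2 with the block gave a like value, 0.33, but did not call it (0.327). Spp1 varied 3.84-fold between replicates, more than any other of the 10 genes above 5 CPM, with the order replicate 3, 1 and 2 that Fn1 also had.

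Postn, periostin, is a fasciclin-domain protein that binds integrins and collagen and is best known from activated fibroblasts. It was scarce in these cells, with 39, 100 and 62 counts (0.515, 1.24 and 0.886 CPM) in acLDL-low and 67, 230 and 106 counts (0.842, 3.20 and 1.14 CPM) in acLDL-high libraries. It was higher in 3 of 3 pairs, by 0.68, 1.35 and 0.36, and replicate 2 was the highest library of each population. The log2 fold change was the largest of the 9 tested among the 10 genes, at 0.88 (SE 0.22, edgeR adjusted p = 0.0394). Without replicate 2 it was 0.51 (adjusted p = 0.330) and without replicate 3 1.13 (0.0919), both not called, and DESeq2 with the block gave 0.84 (0.128). Tgfbi, which also encodes a fasciclin-domain protein, lay at 8.69 to 32.7 CPM and showed a log2 fold change of -0.08 (SE 0.06, edgeR adjusted p = 0.496).

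**Figure D3:**
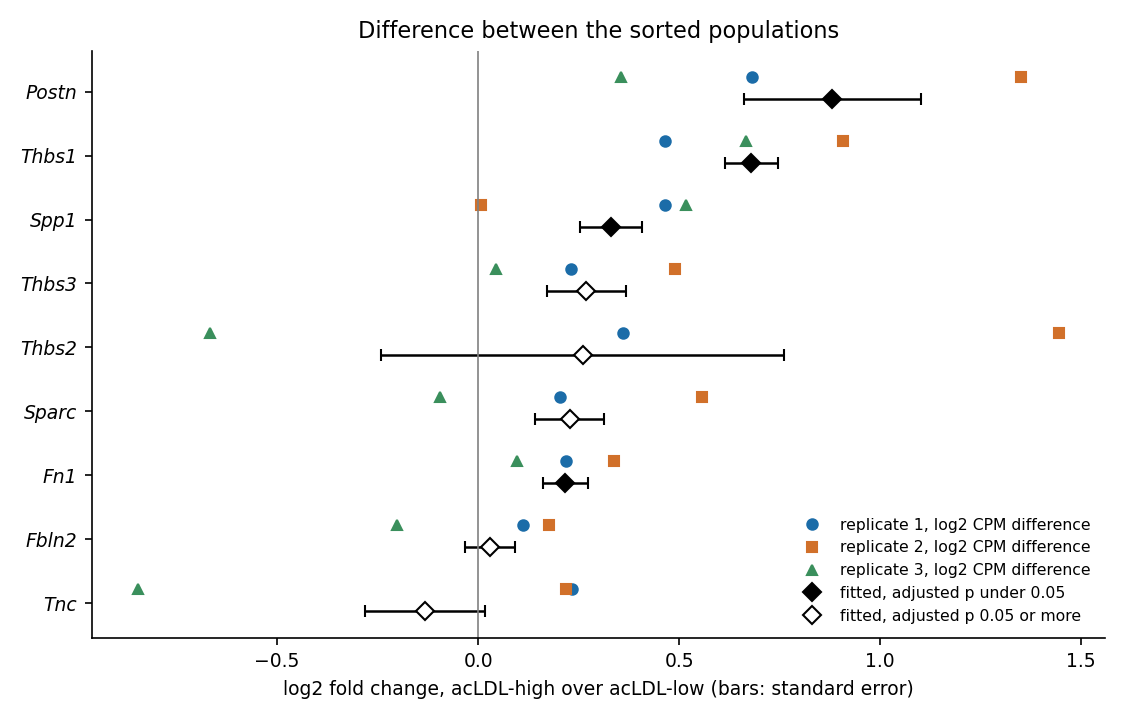
Difference in log2 CPM between acLDL-high and acLDL-low cells for each replicate (coloured symbols) and the fitted log2 fold change with its standard error (diamonds, filled where the adjusted p was under 0.05) for the 9 genes tested. Postn, Thbs1, Spp1 and Fn1 are filled, and the replicate 3 symbols of Tnc and Thbs2 lie at -0.85 and -0.67.

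Tnc, tenascin-C, a hexameric glycoprotein that counteracts adhesion to fibronectin, differed in direction between replicates. Its acLDL-low libraries were at 32.8, 88.6 and 73.7 CPM and its acLDL-high libraries at 38.5, 103 and 41.0 CPM in replicates 1, 2 and 3. It was thus slightly higher with uptake in replicates 1 and 2, by 0.23 and 0.22, and lower in replicate 3 (-0.85). The log2 fold change was -0.13 (SE 0.15, edgeR adjusted p = 0.688). Replicate 3 set the sign, as the value was 0.23 (adjusted p = 0.0965) without it, -0.30 (0.122) without replicate 1 and -0.33 (2.75e-05) without replicate 2. Among these values, the one without replicate 2 was called although its 2 pairs went opposite ways. It rests on 1 residual degree of freedom per gene. The related genes Tnr and Tnn reached 0.118 and 0.0990 CPM and were not tested, and Tnxb showed a log2 fold change of 0.13 (SE 0.08, edgeR adjusted p = 0.402).

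Sparc encodes osteonectin, a collagen-binding counter-adhesive protein. It was at 88.9, 113 and 61.4 CPM in acLDL-low and 102, 165 and 57.5 CPM in acLDL-high cells, higher in replicates 1 and 2 by 0.20 and 0.56 and lower in replicate 3 (-0.10). The log2 fold change of 0.23 (SE 0.09, edgeR adjusted p = 0.165) did not pass, and without replicate 2 it was 0.05 (0.693). The replicates of Sparc, Thbs3, Tnc and Postn shared their top, replicate 2, in both populations, which was the lowest replicate of Fn1 and Spp1 in both. In the Sparc family, Smoc1 was at 0.433 to 1.16 CPM with a log2 fold change of 0.60 (SE 0.23, edgeR adjusted p = 0.172), and Sparcl1, Spock2 and Fstl1 were not called.

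Fbln2 was the steadiest of the genes. Its acLDL-low libraries were at 393, 378 and 435 CPM and its acLDL-high libraries at 425, 427 and 378 CPM, and the replicate means differed only 1.02-fold. The differences of 0.11, 0.18 and -0.20 changed sign, and the log2 fold change was 0.03 (SE 0.06, edgeR adjusted p = 0.851). Fbln1 was at the limit of detection with 9, 0 and 6 counts in acLDL-low and 2, 0 and 0 counts in acLDL-high libraries, did not pass the filter and was not tested. Among the fibulin relatives, Efemp2, which takes part in elastic fibre assembly, was at 51.0 to 60.3 CPM and higher in 3 of 3 pairs, the log2 fold change being 0.13 (SE 0.05, edgeR adjusted p = 0.186), while Fbln5, Fbln7 and Efemp1 reached at most 0.143 CPM.

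The relatives and partners of these genes were read from 5 lists with 96 further genes. Of the 69 tested, 13 were called, all 13 higher and 0 lower in acLDL-high cells, which is 18.8% beside the 3.43% called higher among all genes. The lists were chosen with earlier results known, so these shares describe them and test nothing.

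Of 29 further genes from the matricellular families, 16 were tested and 3 were called, all of them CCN genes, whose products are cysteine-rich matricellular regulators of adhesion and growth factor signalling. Ccn2 rose with a log2 fold change of 0.62 (SE 0.05, edgeR adjusted p = 4.24e-05), from 76.0, 149 and 22.1 CPM to 107, 229 and 38.1 CPM. Ccn1, the most abundant, rose by 0.44 (SE 0.09, edgeR adjusted p = 0.0120), from 592, 571 and 347 CPM to 632, 800 and 582 CPM. Ccn4 rose by 0.33 (SE 0.08, edgeR adjusted p = 0.0387), from 19.9, 24.9 and 12.2 CPM to 24.4, 37.2 and 12.7 CPM. All were higher in 3 of 3 pairs, although the smallest differences, 0.09 for Ccn1 in replicate 1 and 0.06 for Ccn4 in replicate 3, were slight. Ccn3 and Ccn5 were not called, with 0.18 and 0.77 (edgeR adjusted p = 0.398 and 0.199). The median of the 16 genes was 0.14.

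Of 20 receptor genes, 17 were tested and 2 were called, both integrin beta subunits that pair with alpha v. Itgb3 rose by 0.49 (SE 0.08, edgeR adjusted p = 0.00268), from 8.41, 9.27 and 21.4 CPM to 13.5, 11.5 and 30.05 CPM. Itgb6 rose by 0.48 (SE 0.11, edgeR adjusted p = 0.0294), from 3.36, 4.74 and 2.13 CPM to 4.06, 7.24 and 3.13 CPM. The abundant fibronectin and osteopontin receptors did not pass, namely Itgb1 with 0.08, Itga5 with -0.03, Itgav with 0.15 and Cd44 with 0.12 (edgeR adjusted p = 0.337, 0.815, 0.0668 and 0.214). The thrombospondin-1 receptor Cd47, at 124 to 197 CPM, had 0.09 (0.251). Nor were the remaining receptors with an average log2 CPM of at least 6 called, with log2 fold changes of 0.03 for Itga3, 0.08 for Itgb5, 0.09 for Sdc1, 0.16 for Sdc4, -0.03 for Lrp1, 0.10 for Stab1, 0.04 for Ddr1 and -0.0024 for Ddr2 (edgeR adjusted p = 0.0797 to 0.983). Cd36, a receptor of thrombospondin-1 and of modified lipoproteins, had 0 counts in all libraries. This allows at most 0.0427 CPM if each count is a separate RNA fragment. Without replicate 3 the count of called receptors was 0, and without replicate 2 it was 4.

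The genes called among the enzymes and the TGF-beta genes were also higher in acLDL-high cells. Of 16 enzymes that modify, crosslink or cleave these proteins, 12 were tested and 3 proteases were called. The gelatinase Mmp9 rose by 0.41, the metalloprotease Adamts1 by 0.40 and the urokinase Plau by 0.37 (SE 0.05, 0.06 and 0.05, edgeR adjusted p = 0.000311, 0.00430 and 0.000832), each in 3 of 3 pairs. Tgm2, which crosslinks fibronectin, had 0.12 (0.132), the procollagen proteinase Bmp1 -0.01 (0.934), and Lox had 0 counts. The other abundant enzymes were not called, with -0.04 for Pofut2, -0.07 for Loxl4 and 0.28 for Mmp3 on the log2 scale (edgeR adjusted p = 0.110 to 0.666). Of 14 genes of TGF-beta activation and signalling, all were tested and 3 were called, with 0.30 for the latent TGF-beta binding protein Ltbp2, 0.30 for the coreceptor Tgfbr3 and 0.19 for the receptor Tgfbr2 (edgeR adjusted p = 0.0105, 0.0150 and 0.0313), each in 3 of 3 pairs. Tgfb1, the ligand, had 0.13 (0.269). The other abundant genes of this list were not called either, with 0.06 for Tgfb3, 0.14 for Tgfbr1, 0.0068 for Ltbp1, 0.04 for Ltbp3, 0.02 for Ltbp4, 0.12 for Smad3 and -0.06 for Smad4 (edgeR adjusted p = 0.0805 to 0.957). Without replicate 3 only 1 gene of this list was called, and without replicate 2 there were 5.

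Of 17 other secreted matrix glycoproteins, 10 were tested and 2 were called. Mgp, matrix Gla protein, an inhibitor of calcification, rose by 0.61 (SE 0.15, edgeR adjusted p = 0.0344), from 12.1, 5.94 and 15.5 CPM to 21.96, 5.23 and 29.1 CPM, and was thus lower in replicate 2. Matn2, matrilin-2, rose by 0.19 (SE 0.05, edgeR adjusted p = 0.0422) in 3 of 3 pairs. The abundant basement membrane genes Hspg2 and Agrn had -0.12 and 0.08 (edgeR adjusted p = 0.322 and 0.460), the abundant Ecm1 and Mfge8 had 0.02 and -0.02 (0.869 and 0.834), and Vtn, vitronectin, had 0 counts. Without replicate 3, and with DESeq2, 0 genes of this list were called. Among the mammary epithelial markers, 2 of 9 tested were called, Cldn4 with 0.53 and Cldn3 with 0.28 (edgeR adjusted p = 0.000832 and 0.0161), and the part of epithelial state in the matrix differences was not tested.

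**Figure D4:**
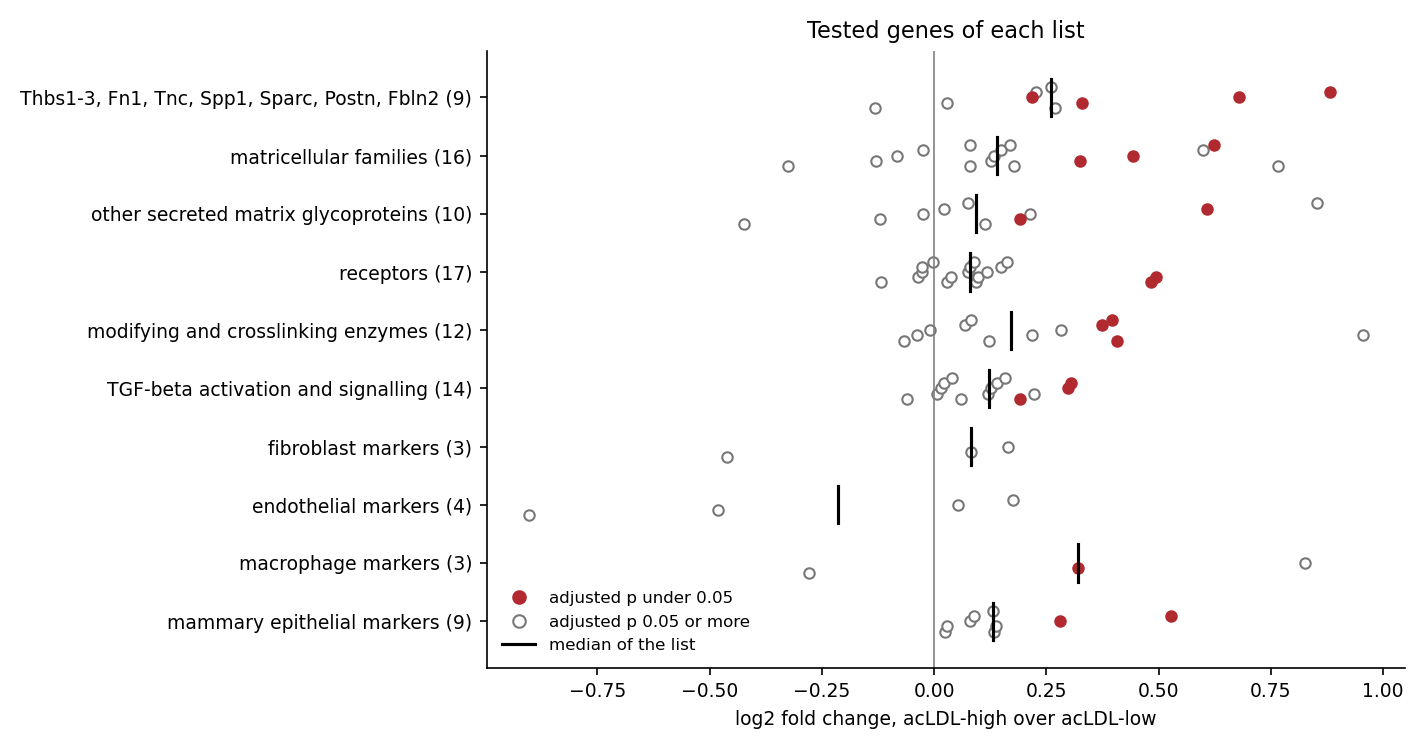
Log2 fold change of every tested gene of each list (number of genes in brackets), filled where the adjusted p was under 0.05, with a bar at the median. All filled points lie to the right of 0, and the medians of the 5 matrix and receptor lists run from 0.08 to 0.17.

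**Figure D5:**
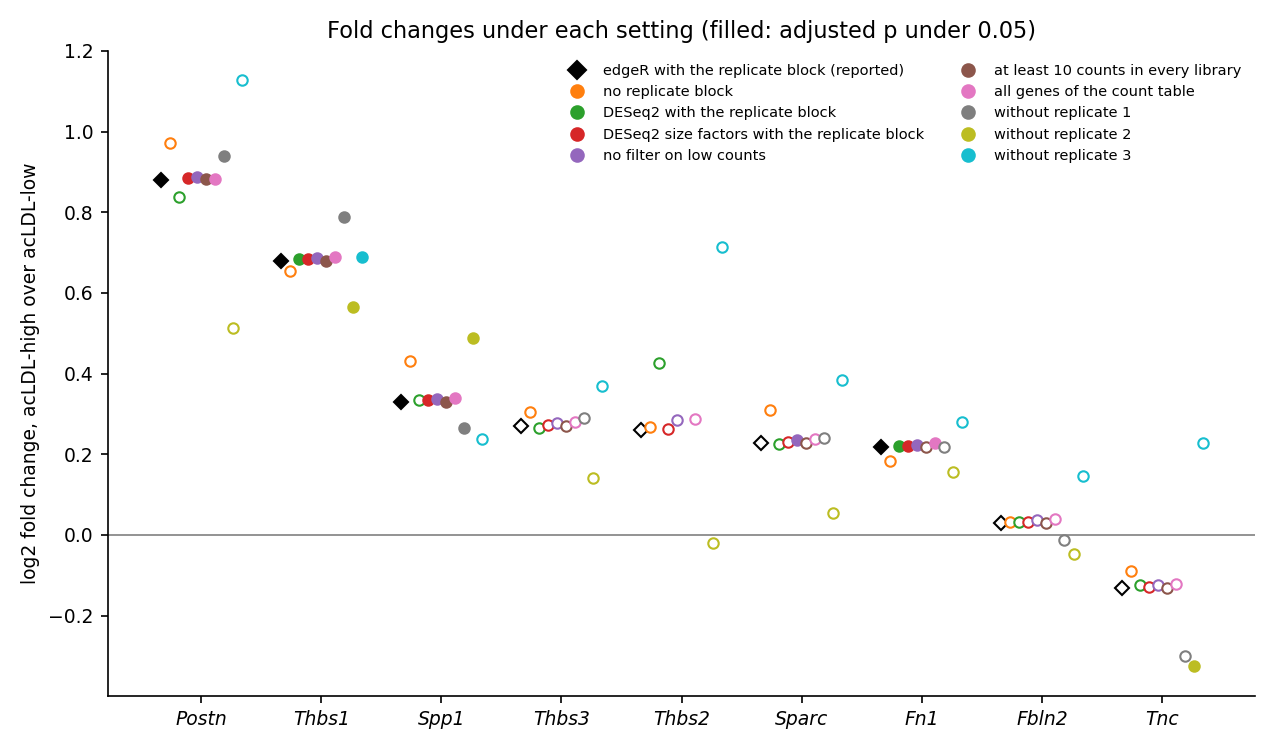
Log2 fold change of the 9 genes under the reported fit (diamonds) and 9 alternatives (circles), filled where the adjusted p was under 0.05. Thbs1 is filled under every setting but the fit without the replicate block, and Tnc, Fbln2 and Thbs2 cross 0 when a replicate is left out.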

How the data were processed

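Reads were mapped by the authors to mm10 using STAR (version 2.5.2a), and counted per gene with featureCounts (1.4.3-p1), and the authors deposited raw counts without normalization. From the deposited DESeq2 (1.20.0) comparison only gene IDs and symbols were used, and its fold changes, errors and p-values were not.

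The counts were analysed with edgeR (version 4.0.16, R 4.3.3). Protein-coding genes passing filterByExpr (12572) were scaled by TMM and tested by quasi-likelihood with the replicate number as a block, since the paper's methods include replicate information. The series text gives separate occasions, and same-numbered libraries deviated from their group means together (correlations across genes of 0.795, 0.846 and 0.799). Standard errors (SE) were derived from the fold change and the F statistic, and log2 CPM used a prior count of 2. Positions and exon lengths came from GENCODE (release vM21). On simulated data, 185 of 200 genes changed by 1 log2 unit were recovered, with 7 false calls among 12482. That change is larger than any fitted for the genes followed here, so the recovery does not extend to differences of their size.

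The genes and lists were chosen with earlier results of these data known. Named genes are the 10 genes, any of the matricellular families or cell type markers, and, of each other list, those called with an average log2 CPM of at least 1 (at most the 6 largest changes) and those with an average of at least 6. Cd36, Lox and Vtn fall outside this rule and were named after their values were seen. Alternatives were a fit without the block, DESeq2 (1.42.0), its size factors, other filters on low counts (none, or at least 10 in every library), a test of the whole count table and leaving out each replicate pair.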

Additional observations from a re-analysis of the deposited data

How the results depend on the processing

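The count of genes called was 597 (431 higher, 166 lower). It was 0 (0 and 0) without the replicate block, 468 with DESeq2 (103 lower), 932 without a filter on low counts (669 and 263), and between 126 and 869 without 1 replicate (112 to 602 higher, 14 to 267 lower), lowest without replicate 3. The 4 genes called became 0 without the block, 2 with DESeq2 (Thbs1 and Fn1), 1 without replicate 3 (Thbs1), 3 without replicate 1 (Thbs1, Spp1 and Postn) and 2 without replicate 2 (Thbs1 and Spp1), where Tnc was called as lower. Without 1 replicate, 1 to 3 of the 10 genes were thus called, 1 to 3 as higher and 0 to 1 as lower. Of the lists, 0 genes were called without the block in the matricellular families, other matrix glycoproteins, receptors, enzymes, TGF-beta genes, macrophage and mammary epithelial markers. DESeq2 called 0 of the other matrix glycoproteins and 0 of the macrophage markers, and without the low-count filter 4 receptors and 5 TGF-beta genes were called. Without 1 replicate the counts ran from 0 to 4 for receptors, 1 to 5 for TGF-beta genes, 0 to 2 for other matrix glycoproteins and 0 to 2 for macrophage markers. Of the single genes, the sign turned for Thbs2 without replicate 2, Fbln2 without replicate 1 (-0.011) or 2, and Tnc without replicate 3. Without 1 replicate the log2 fold change ran from -0.020 to 0.71 for Thbs2, -0.047 to 0.15 for Fbln2 and -0.33 to 0.23 for Tnc. The cause was not tested. Fn1 was not called with at least 10 counts in every library (adjusted p = 0.0537), where fewer genes were tested, and Sparc was called without the low-count filter (0.0233). Thbs2 had no value in 2 settings whose filters removed it. Depth limits Thbs2 and Fbln1, which lie near the floor, and Postn, with at most 230 counts.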
